A study of Mus musculus with 32 samples.

Results

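The proteasome genes described here are 39 genes chosen by symbol out of the 34453 genes in the table of counts, and all 39 were found and passed the filter on low counts in every comparison. They were taken as the subunits of the core particle (7 of its alpha ring and 7 of its beta ring), the 3 catalytic subunits of the immunoproteasome, the regulatory particle (9 genes of its base and 8 of its lid), the 4 activators of the PA28 and PA200 type, and the assembly factor *Pomp*. RNA from the RPE of 16 mice was amplified and sequenced in 32 libraries. All 16 are labelled *rd1*, a strain that loses its rods through a mutation in *Pde6b*. Of the 2 eyes of a mouse, the control eye received a single vector, AAV-Best1-GFP, and the Nrf2 eye received the same vector together with AAV-Best1-Nrf2, which carries human NRF2. There were 7 mice at postnatal day 20 (P20) and 9 at P40. The Best1 promoter was used to limit both transgenes to the RPE, and the control eyes carry AAV and GFP as well, so that no eye was untreated. By the methods, Nrf2 eyes received a higher total dose of vector, and the Nrf2 vector had another capsid than the GFP vector. Dose and capsid therefore cannot be separated from Nrf2 in the comparison between eyes. Total counts ran from 16548332 to 50542797 in Nrf2 eyes at P20 (median 32215113), 23756954 to 41463426 in control eyes at P20 (median 30969254), 32422410 to 49147448 in Nrf2 eyes at P40 (median 38726346), and 17721493 to 43412270 in control eyes at P40 (median 34586699).

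The proteasome degrades proteins tagged with ubiquitin, in a barrel whose inner beta rings cut and whose outer alpha rings form the gate, while the regulatory particle binds, unfolds and feeds the substrate. Interferon replaces the catalytic beta subunits with those of the immunoproteasome, which alters the peptides offered to T cells. The transcription factor Nrf1 restores proteasome genes when degradation falls short, Nrf2 can raise some of them under oxidative stress, and the RPE carries a heavy load of protein and lipid turnover from the outer segments it takes up.

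A pair of libraries stood apart from their labels. The level of the human transgene was 1098 CPM (counts scaled to library size) in the library labelled as the control eye of P20 mouse 3, against at most 154 CPM in any other control eye, and 1082 CPM in the library labelled as the Nrf2 eye of P20 mouse 4, against at least 3205 CPM in any other Nrf2 eye. The squared difference between these libraries was 8.02 times that of sampling noise, against at least 56.4 times for any other pair of libraries. Results at P20 and with age are therefore also given without them. The methods name 6 pairs of *rd1* mice at P20, 4 pairs of *rd1* and 5 pairs of CD1 mice at P40, whereas the labels give 7 and 9 pairs, all *rd1*, so that the labels do not tell whether some P40 pairs were CD1. Sequencing took place in 2 runs that the labels do not tie to libraries, and run was not fitted. The labels of all P20 libraries begin with M and those of all P40 libraries with A, so that this split cannot be separated from age. All 8 known Nrf2 targets examined as a check of the labels were higher in Nrf2 eyes at both ages, with median log2 fold changes (log2FC) of 3.26 at P20 and of 3.77 at P40. Markers of the RPE were present in all eyes, with a summed level of at least 5051 CPM for the 10 genes, *Rgr* the most abundant in control eyes and *Ttr* in Nrf2 eyes.

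Levels of different members were compared per kilobase of transcript. In control eyes at P20, the highest median levels were those of *Psma7* in the alpha ring (180 CPM per kilobase) and *Psmb6* in the beta ring (179 CPM per kilobase), and the lowest were those of the immunoproteasome subunit *Psmb9* (10.7 CPM per kilobase) and the activator *Psme4* (4.05 CPM per kilobase). The median level over members was 69.6 CPM per kilobase for the alpha ring, 82.5 for the beta ring, 81.9 for the base, 49.6 for the lid and 20.4 for the immunoproteasome. The ratio of the highest to the lowest of the 32 eyes was 42.1 for *Psmb8* and 26.2 for *Psmb9*. It was 11.2 for *Psme2*, 8.07 for *Psmb10*, and at most 5.80 in the alpha ring, beta ring, base and lid. That of *Psmd1*, a subunit of the base, was 1.67. *Psmb8* and *Psmb9* thus varied more from eye to eye than any other member. The order at the top does not separate *Psma7* from *Psmb6*, whose eyes ran from 139 to 642 and from 156 to 688 CPM per kilobase.

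The first question was whether Nrf2 in the RPE changed proteasome transcripts at P20, compared between the eyes of each mouse. In edgeR, 2 of 39 members were higher and 0 were lower at an adjusted p under 0.05, where 2.93% of the 16303 genes tested were higher and 0.485% lower. At an unadjusted p under 0.05 there were 5 members (18.2% of genes), DESeq2 called 3 higher (7.63% of genes) and 0 lower (4.34%), and limma voom called 5 higher (9.77%) and 1 lower (6.21%). The members' median log2FC was 0.04, beside -0.04 over all genes tested. The share of members called was thus near that over all genes, and the differences lay in single subunits.

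*Psma2* (ENSMUSG00000015671, chr13:14613240-14674236 in GRCm38), a subunit of the alpha ring, had a level of 91.8 to 124 CPM in control eyes at P20 (median 111 CPM) and of 115 to 207 CPM in Nrf2 eyes (median 167 CPM). Its Nrf2 eye was the higher in 7 of 7 mice, and the only Nrf2 eye within the range of the control eyes was that of mouse 4. Its log2FC was 0.57 ± 0.12 (SE, adjusted p 0.0393).

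*Psmd11* (ENSMUSG00000017428, chr11:80428615-80473248), a lid subunit that clamps the regulatory particle to the core, had a level of 69.1 to 101 CPM in control eyes (median 78.6 CPM) and of 83.2 to 140 CPM in Nrf2 eyes (median 124 CPM). The Nrf2 eye was the higher in 7 of 7 mice, and the eye of mouse 4, at 83.2 CPM, was the only Nrf2 eye within the control range. Its log2FC was 0.57 ± 0.11 (SE, adjusted p 0.0341).

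*Psme4* (ENSMUSG00000040850, chr11:30771726-30880361) encodes PA200, an activator that caps the core without ubiquitin. Its level was 21.2 to 35.1 CPM in control eyes (median 26.3 CPM) and 30.0 to 53.4 CPM in Nrf2 eyes (median 42.3 CPM), with overlap at the lowest Nrf2 eye, again that of mouse 4. The log2FC of 0.60 ± 0.13 (SE), higher in 7 of 7 mice, missed the threshold with an adjusted p of 0.0516.

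**Figure D1:**
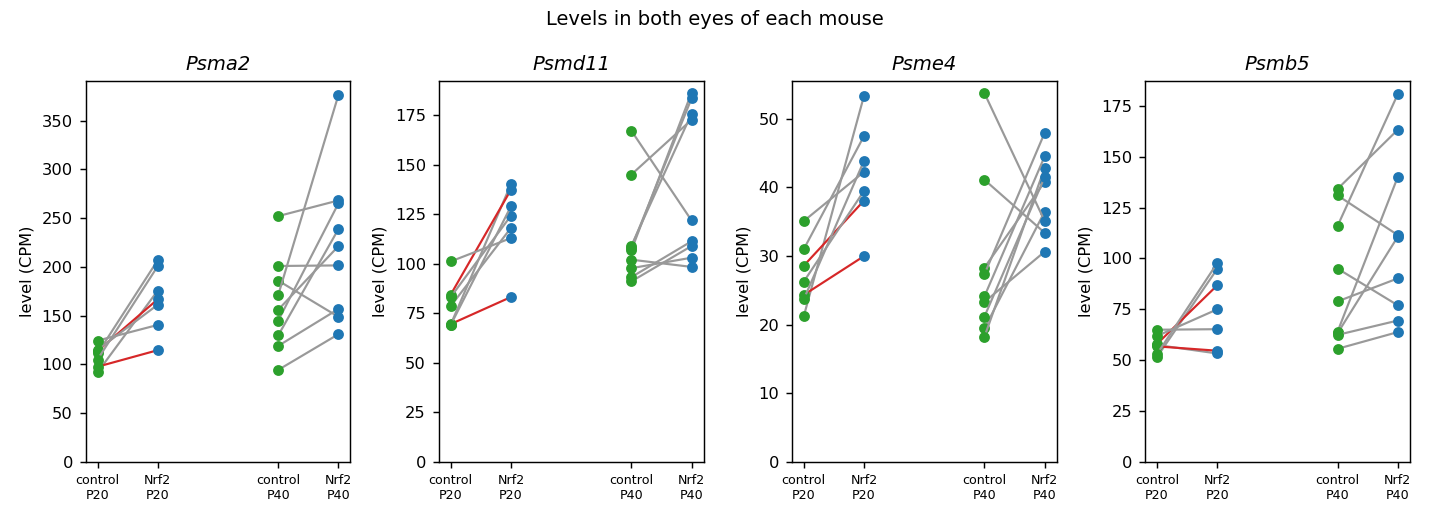
Level in CPM (vertical axis, from 0) of 4 proteasome genes in the control eye (green) and the Nrf2 eye (blue) of each mouse, with a line joining the eyes of a mouse and red lines for P20 mice 3 and 4. At P20 every line rises for Psma2, Psmd11 and Psme4, and 5 of 7 rise for Psmb5.

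The calls changed with the mice fitted, as did those over the whole table, where 556 genes were called with all mice. Without P20 mice 3 and 4, 0 members were called, although 759 genes were called over the whole table. Without mouse 1, 2, 3, 5 or 7 alone, 0 members were called, and 111 to 376 genes. Without mouse 6 it was only *Psmd11*, and 228 genes. Without mouse 4 there were 5 members (*Psma2*, *Psmd11* and *Psme4* higher, *Psmb8* and *Psmb10* lower), and 1999 genes (6.04% higher, 6.20% lower). Over 18 alternatives the log2FC of *Psma2* stayed between 0.50 and 0.66 with an adjusted p of 0.00119 to 0.137, and that of *Psmd11* between 0.50 and 0.66 with an adjusted p of 0.000693 to 0.129. The size of both differences was thus steadier than their side of the threshold. After a correction for GC content and transcript length in edgeR, *Psmd11* was called (log2FC 0.54, adjusted p 0.0405) and *Psma2* was not (0.50, adjusted p 0.0676), where 2.92% of genes were higher.

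By direction alone, 6 of 39 members (*Psma2*, *Psmb3*, *Psmd1*, *Psmd8*, *Psmd11* and *Psme4*) were higher in the Nrf2 eye of every mouse at P20, where 5.59% of genes were. The median log2FC was 0.11 in the alpha ring, 0.09 in the beta ring, 0.01 in the base and 0.05 in the lid. It was -0.01 among the activators and -0.49 in the immunoproteasome. After the correction for GC content and transcript length these medians were, in the same order, -0.04, -0.03, -0.06, -0.04, -0.05 and -0.51. The corrected median was -0.06 over all members, beside -0.05 over all genes. In the beta ring, the largest difference was that of *Psmb5*, the subunit with chymotrypsin-like activity. Its level was 51.5 to 64.9 CPM in control eyes (median 57.4 CPM) and 53.3 to 97.6 CPM in Nrf2 eyes (median 74.9 CPM). The log2FC of 0.32 ± 0.15 (SE, adjusted p 0.299) was positive in 5 of 7 mice, with Nrf2 eyes both within and above the control range.

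The sequences around the gene starts are shown for the 3 members with the smallest adjusted p for Nrf2 at P20, and for *Psmb5*, the constitutive catalytic subunit with the largest difference. They are from RefSeq (GRCm38.p6), each of 300 bases (250 before the RefSeq start and 50 after it) on the strand of the gene, 5′ to 3′, with capitals at the antioxidant response element core TGACNNNGC, searched on both strands.
Psma2: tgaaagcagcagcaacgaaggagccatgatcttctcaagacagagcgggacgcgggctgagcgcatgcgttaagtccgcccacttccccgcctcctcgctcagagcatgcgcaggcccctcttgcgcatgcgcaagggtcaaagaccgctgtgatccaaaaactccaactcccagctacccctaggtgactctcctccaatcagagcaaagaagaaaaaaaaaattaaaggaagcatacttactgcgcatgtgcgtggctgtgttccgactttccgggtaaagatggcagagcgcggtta
Psmd11: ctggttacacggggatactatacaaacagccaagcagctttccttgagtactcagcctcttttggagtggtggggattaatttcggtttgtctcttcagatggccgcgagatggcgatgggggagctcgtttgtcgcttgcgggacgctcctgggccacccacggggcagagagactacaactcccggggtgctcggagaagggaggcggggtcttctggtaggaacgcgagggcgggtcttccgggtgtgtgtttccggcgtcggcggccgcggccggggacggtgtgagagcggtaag
Psme4: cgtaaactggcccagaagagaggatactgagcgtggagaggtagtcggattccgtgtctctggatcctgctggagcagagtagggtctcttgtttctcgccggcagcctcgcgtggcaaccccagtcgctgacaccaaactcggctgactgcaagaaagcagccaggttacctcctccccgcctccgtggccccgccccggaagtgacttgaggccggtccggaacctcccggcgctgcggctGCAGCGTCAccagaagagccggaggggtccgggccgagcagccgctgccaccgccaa
Psmb5: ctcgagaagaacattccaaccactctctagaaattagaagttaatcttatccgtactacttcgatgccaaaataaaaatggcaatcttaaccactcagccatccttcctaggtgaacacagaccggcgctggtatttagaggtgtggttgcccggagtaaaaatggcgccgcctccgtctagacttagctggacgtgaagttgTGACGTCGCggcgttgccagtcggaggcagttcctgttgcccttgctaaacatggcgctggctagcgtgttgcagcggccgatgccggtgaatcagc
The windows are chr13:14612992-14613291 (plus strand) for *Psma2*, chr11:80428365-80428664 (plus strand) for *Psmd11*, chr11:30771525-30771824 (plus strand) for *Psme4* and chr14:54617946-54618245 (minus strand) for *Psmb5*. The core was found at -47 in *Psmb5* and, on the opposite strand, at -7 in *Psme4*, and these letters are not in the windows of *Psma2* and *Psmd11*. *Psmb5* was picked for display among the members holding the core, so its match was known beforehand. Windows were given for 33 members, and 5 of them held the core (*Psmb5*, *Psmb6*, *Psmc6*, *Psmd12* and *Psme4*), where 13.99% of 27025 genes did. A match is a description of the sequence only. The interferon motif TTCNNNGAA was found in *Psmb8* and *Psmd2* (9.55% of all genes), and GAAANNGAA in 6 members (9.76% of all genes).

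**Figure D2:**
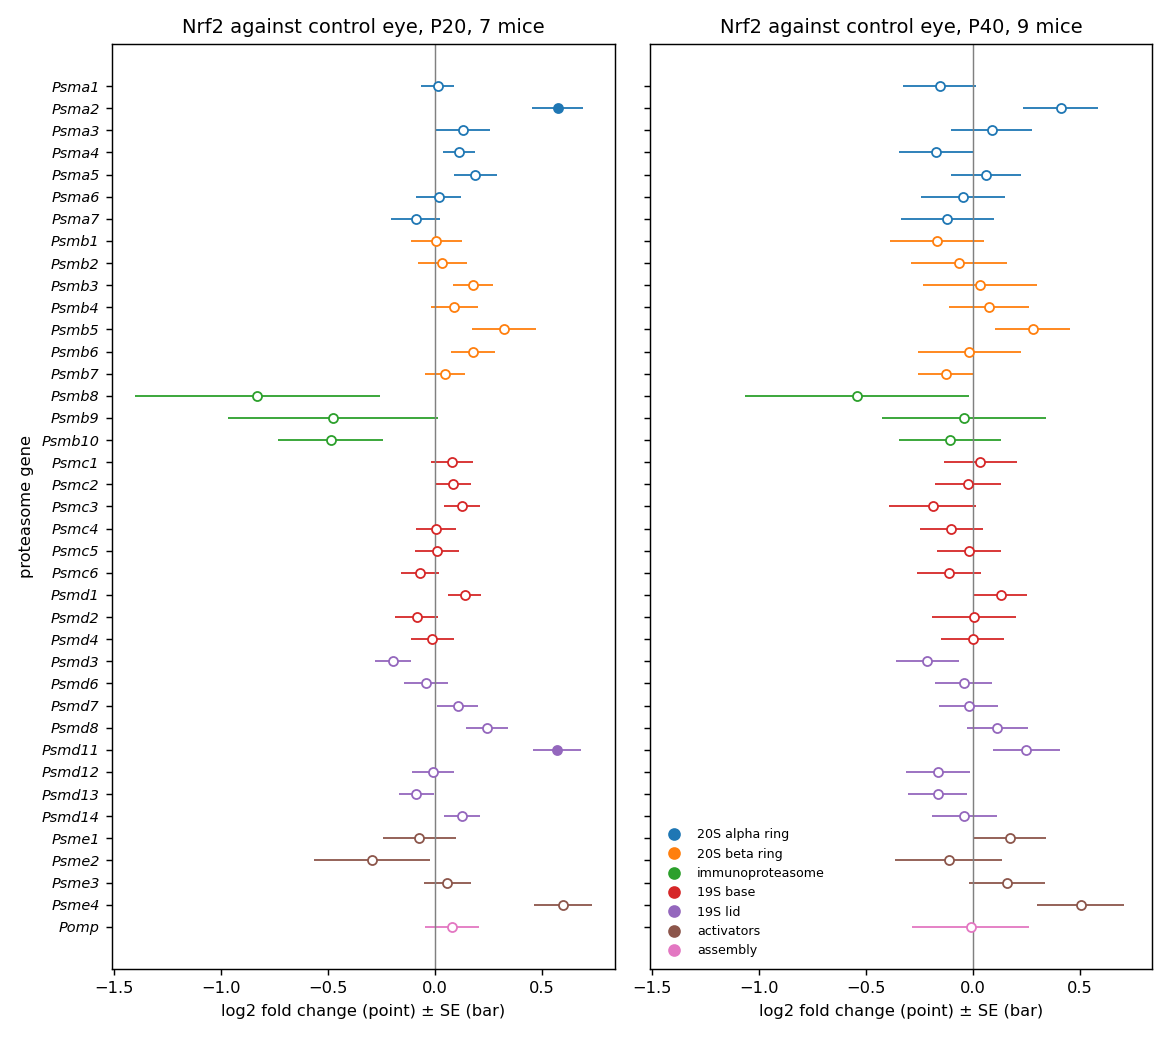
Log2 fold change of the Nrf2 eye against the control eye (point) with its SE (bar) for the 39 proteasome genes at P20 (7 mice) and P40 (9 mice), coloured by subcomplex, with filled points for an adjusted p under 0.05 in edgeR. Filled points are Psma2 and Psmd11 at P20, and the widest bars are those of Psmb8.

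Markers of other cells also differed between the eyes. At P20, 1 of 10 RPE markers (*Rpe65*) and 2 of 6 cone markers were lower in Nrf2 eyes, and 0 of 12 macrophage and microglia markers, 0 of 6 fibroblast, 0 of 6 endothelial, 0 of 8 rod, 0 of 5 muscle, 0 of 5 blood and 0 of 7 Müller glia and inner retina markers were called in edgeR. The summed level of the cone markers, *Opn1sw* the most abundant in control eyes and *Gnat2* in Nrf2 eyes, was 30.7 to 814 CPM in control eyes (median 278 CPM) and 13.2 to 64.6 CPM in Nrf2 eyes (median 20.8 CPM). The summed rod level had a median of 105 CPM in control eyes and 10.7 CPM in Nrf2 eyes, and the median log2FC was -1.56 for the rod markers and 1.35 for the macrophage and microglia markers. The summed level of the latter had medians in the other direction, at 254 CPM in control eyes and 187 CPM in Nrf2 eyes, as did *Csf1r*, the most abundant, at 163 and 82.3 CPM. The part of these cells in the results was not tested, and in bulk RNA fewer cells of a type and less RNA per cell cannot be told apart.

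At P40 the same comparison between eyes called 0 of 39 members in edgeR, where 3.33% of the 16686 genes tested were higher. At an unadjusted p under 0.05 there were 2 members (13.02% of genes), and DESeq2 and limma voom each called 0 (5.23% and 5.20% of genes higher). The members' median log2FC was -0.02, beside -0.03 over all genes, and 0 of 39 members were higher in every pair, where 3.55% of genes were.

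The level of *Psma2* at P40 was 94.3 to 252 CPM in control eyes (median 156 CPM) and 131 to 377 CPM in Nrf2 eyes (median 221 CPM), higher in 8 of 9 mice, with a log2FC of 0.41 ± 0.18 (SE, adjusted p 0.331). That of *Psme4* was 18.2 to 53.8 CPM in control eyes (median 24.1 CPM) and 30.6 to 48.0 CPM in Nrf2 eyes (median 40.8 CPM), higher in 7 of 9 mice, with a log2FC of 0.50 ± 0.20 (SE, adjusted p 0.290). The groups overlapped for *Psma2*, and for *Psme4* through the control eyes of mice 3 and 8, while the other 7 control eyes lay below all Nrf2 eyes. For *Psmd11* the level was 91.1 to 167 CPM in control eyes (median 107 CPM) and 98.5 to 187 CPM in Nrf2 eyes (median 122 CPM), higher in 7 of 9 mice, with a log2FC of 0.25 ± 0.16 (SE, adjusted p 0.609). At P40, 5 of 10 RPE, 6 of 6 cone and 2 of 7 rod markers were lower in Nrf2 eyes (1.24% of all genes) while 8 of 12 macrophage and microglia markers and 1 of 6 fibroblast markers were higher. Their summed macrophage and microglia level was 98.7 to 472 CPM in control eyes (median 210 CPM) and 167 to 610 CPM in Nrf2 eyes (median 391 CPM). *Csf1r*, the most abundant in both, went the other way, with a median of 109 CPM in control eyes and 49.0 CPM in Nrf2 eyes. Their part was not tested.

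Whether the Nrf2 effect differed between the ages was tested over all 32 eyes. In edgeR 0 of 39 members were called, where 0.00557% of the 17959 genes tested were. At an unadjusted p under 0.05 there were 0 members (2.39% of genes). DESeq2 called 0 members, and 12 genes over the whole table, and limma voom 0 members and 1 gene. Without P20 mice 3 and 4 there were 0 members in edgeR (0.00542% of genes). The calls at P20 and their lack at P40 therefore do not show that the ages differed.

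The immunoproteasome was examined as a group of its own. *Psmb8*, which takes the place of *Psmb5*, had a level of 9.23 to 137 CPM in control eyes at P20 (median 66.1 CPM) and of 18.8 to 75.5 CPM in Nrf2 eyes (median 31.5 CPM). The Nrf2 eye was the higher in 1 of 7 mice, mouse 4, which also had the lowest of the control eyes. The log2FC was -0.83 ± 0.57 (SE, adjusted p 0.474), and *Psmb8*, which shares 498 exon bases with a gene on the opposite strand, was singled out after its values were seen. *Psmb10*, which takes the place of *Psmb7*, had a level of 13.5 to 41.5 CPM in control eyes (median 26.7 CPM) and of 14.96 to 24.8 CPM in Nrf2 eyes (median 16.6 CPM). Its Nrf2 eyes lay in the lower part of the control range, with the Nrf2 eye higher in 1 of 7 mice, again mouse 4. The log2FC was -0.49 ± 0.25 (SE, adjusted p 0.337). For *Psmb9* the P20 log2FC was -0.48 ± 0.49 (SE, adjusted p 0.640), with the Nrf2 eye higher in 1 of 7 mice. At P40 the log2FC was -0.54 for *Psmb8*, -0.11 for *Psmb10* and -0.04 for *Psmb9*. None of these was called, and for each the Nrf2 eye was the higher in 4 of 9 mice.

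Without mouse 4 in edgeR, *Psmb8* and *Psmb10* were lower at the threshold, as were 6.20% of genes. Over 18 alternatives the log2FC of *Psmb8* ran from -1.28 to -0.53, with an adjusted p of 0.0182 to 0.720. That of *Psmb10* ran from -0.72 to -0.32, with an adjusted p of 0.0259 to 0.573. As a share of the sum of *Psmb8* and *Psmb5*, each per kilobase, *Psmb8* made up 8.24% to 53.8% in control eyes at P20 (median 40.8%) and 9.61% to 43.2% in Nrf2 eyes (median 18.8%). At P40 the share was 13.7% to 57.7% in control eyes (median 33.6%) and 4.78% to 54.3% in Nrf2 eyes (median 22.6%). At both ages the groups overlapped over most of their range. The median share of *Psmb10* with *Psmb7* was 27.9% in control eyes and 19.6% in Nrf2 eyes at P20. At P40 it was 35.16% and 32.05%. The median share of *Psmb9* with *Psmb6* was 5.65% in control eyes and 2.73% in Nrf2 eyes at P20. At P40 this share went the other way, at 3.69% in control eyes and 4.24% in Nrf2 eyes. *Irf1*, an interferon-induced activator of the immunoproteasome genes, had a P20 log2FC of -0.89 ± 0.55 (SE, adjusted p 0.425), lower in the Nrf2 eye of 6 of 7 mice and chosen after its values were seen. Of 12 antigen processing genes, 0 were called at P20 and 1 at P40, *H2-K1*, with a log2FC of 1.01 ± 0.18 (SE, adjusted p 0.00646), higher in 8 of 9 mice. Markers of T and NK cells were low at P20, with a summed level of 1.15 to 3.07 CPM in control eyes (median 2.09 CPM, *Cd4* the most abundant) and 0.838 to 16.49 CPM in Nrf2 eyes (median 1.54 CPM, *Cd3d* the most abundant, with the highest in mouse 2), and with *Gzmb* at a median of 0.

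**Figure D3:**
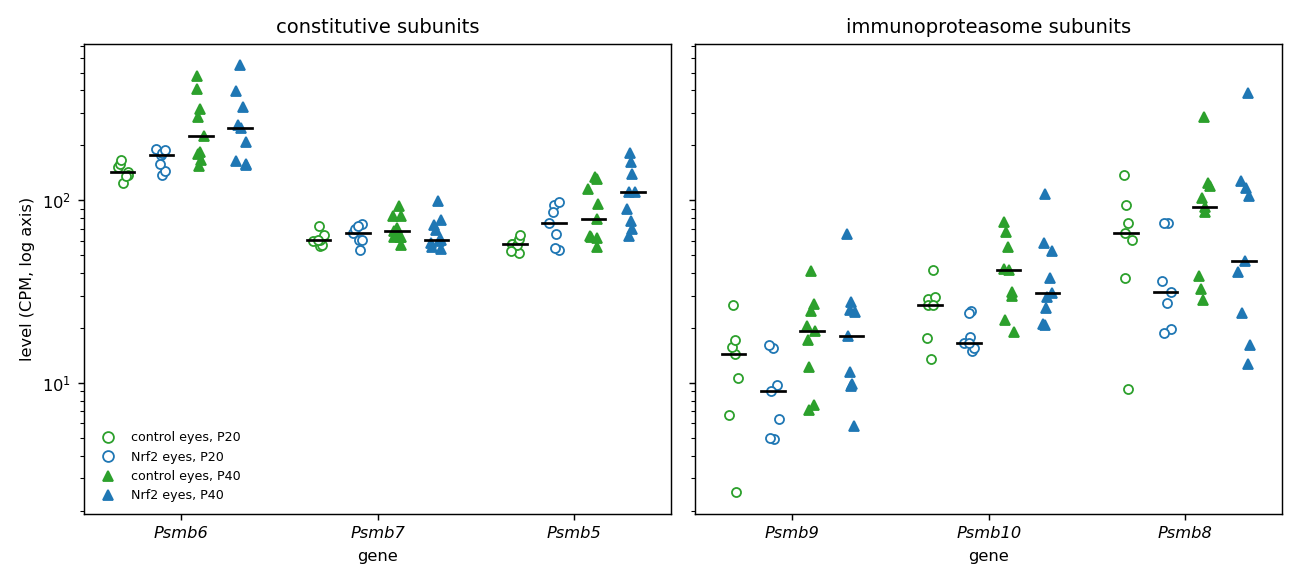
Level in CPM (vertical log axis) of the 3 constitutive catalytic subunits and the 3 immunoproteasome subunits in each of 32 eyes, by group, with a black line at the group median. At P20 the eyes of each constitutive subunit lie closer together than those of Psmb8, which runs from 9.23 to 137 CPM in control eyes at P20 and from 12.7 to 389 CPM in Nrf2 eyes at P40.

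The next question was how proteasome transcripts differed between P20 and P40. The part in these differences of the M and A label series, and of strain if some P40 pairs were CD1, was not tested. In control eyes, edgeR called 21 of 39 members higher at P40 and 0 lower, where 8.34% of the 16832 genes tested were higher and 6.42% lower. DESeq2 called 27 higher (16.03% of genes) and 0 lower (9.98%), limma voom 23 higher (9.65%) and 0 lower (12.61%), and 30 members had an unadjusted p under 0.05 (35.2% of genes). The members' median log2FC was 0.55, beside 0.00 over all genes, and 35 of 39 were positive. By subcomplex, 7 of 7 alpha and 6 of 7 beta subunits were higher, against 4 of 9 in the base, 3 of 8 in the lid, 0 of 3 in the immunoproteasome and 0 of 4 activators. The medians were 0.65 in the alpha ring, 0.82 in the beta ring, 0.34 in the base, 0.35 in the lid, 0.60 in the immunoproteasome and 0.36 among the activators, and whether the subcomplexes differed was not tested.

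*Psmb4*, a structural beta subunit, had a level of 86.2 to 105 CPM in control eyes at P20 (median 97.5 CPM) and of 98.0 to 253 CPM at P40 (median 149.5 CPM). The P40 eyes began within the P20 range and ran far above it, with a log2FC of 0.82 ± 0.22 (SE, adjusted p 0.0298). *Pomp*, which guides the joining of the beta rings, had a level of 84.7 to 154 CPM at P20 (median 103 CPM) and of 99.0 to 413 CPM at P40 (median 191 CPM). Its groups also overlapped, with a log2FC of 1.07 ± 0.31 (SE, adjusted p 0.0372). The level of *Psma4* in the alpha ring was 77.5 to 87.3 CPM at P20 (median 81.1 CPM) and 87.4 to 186 CPM at P40 (median 119.5 CPM), with no overlap, a log2FC of 0.71 ± 0.19 (SE, adjusted p 0.0315), and 114 bases of exon shared with a gene on the opposite strand. After a correction for GC content and transcript length, described below, the log2FC was 0.30 for *Psmb4*, 0.60 for *Pomp* and -0.03 for *Psma4*, and none of the 3 was called. *Psma4*, *Psmc3* and *Psmd8* were the 3 of 39 members whose P40 control eyes, uncorrected, all lay above all P20 control eyes, where 1.13% of genes did.

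The count of 21 depended on single eyes. In edgeR 0 members were called without the control eye of P20 mouse 3, the library that stood apart (1.37% of genes higher), and also 0 without that of P20 mouse 1, 2, 5 or 7 or of P40 mouse 3 or 5. There were 2 without P20 mouse 4 (3.18% of genes higher), 9 without P20 mouse 6 (4.20%) and 29 without P40 mouse 1 (13.65%). The count was 1 without P40 mouse 2 (3.09%) and 12 without P40 mouse 7 (6.68%). Without P40 mouse 4, 6, 8 and 9 it was 21 (10.95%), 21 (9.34%), 17 (9.26%) and 19 (8.66%). The genes called over the whole table also moved, from 2483 with all eyes to between 473 and 950 in the fits with 0 members, and to 4273 without P40 mouse 1. The members' median log2FC stayed between 0.43 and 0.59 when any 1 eye was left out.

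The differences with age also followed transcript length. Among genes with transcripts of up to 1687 bases, 21.1% were higher at P40 in control eyes, and among genes over 4325 bases 3.07% were higher and 11.8% lower. Of the 39 members, 26 were in the short class, and 16 of those 26 were called. Their median log2FC was 0.60, beside 0.49 over all genes of the class. Of the 7 members over 1687 and up to 2815 bases, 2 were called, where 6.06% of genes were higher. Of the 5 over 2815 and up to 4325 bases, 3 were called, where 4.025% of genes were higher. The median log2FC of these 5 was 0.55, beside -0.22 over genes of that length. The 1 longer member was not called. Across genes, which are not independent replicates, Spearman's rho between length and log2FC was -0.38 over 16817 genes and -0.58 over the 39 members. After a correction for GC content and transcript length, 1 of 39 members was called (*Psmd11*, log2FC 0.57, adjusted p 0.0428), where 2.32% of genes were higher. The members' median fell from 0.55 to 0.12, and that over all genes from 0.00 to -0.08. The corrected median was -0.03 in the alpha ring, 0.27 in the beta ring, 0.03 in the base and -0.04 in the lid. It was 0.44 in the immunoproteasome and 0.14 among the activators. With the correction and without the control eye of P20 mouse 3, 0 members were called, where 0.492% of genes were higher.

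**Figure D4:**
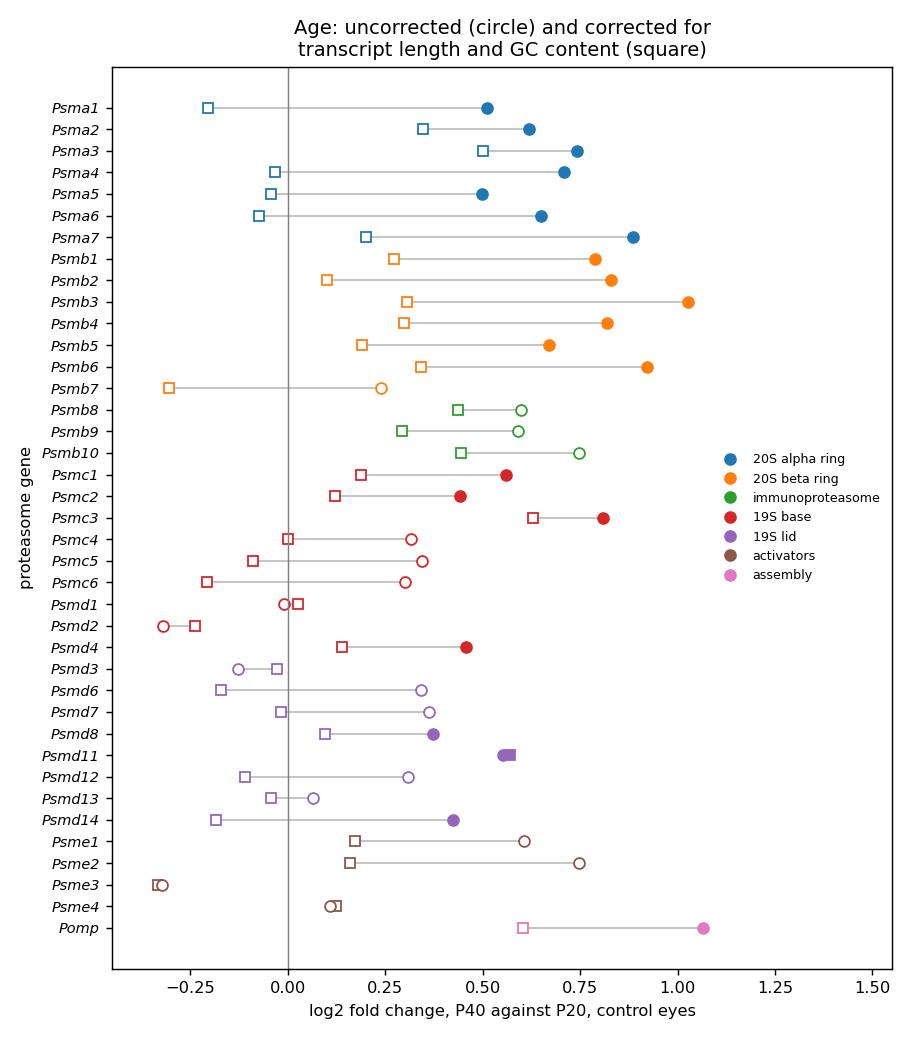
Log2 fold change of P40 against P20 in control eyes for the 39 proteasome genes, without (circles) and with (squares) a correction for GC content and transcript length, coloured by subcomplex, with filled symbols for an adjusted p under 0.05 in edgeR. Of the circles 21 are filled, and of the squares 1, that of Psmd11.

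The same length difference was seen library by library. The median log2 deviation of short minus long transcripts was -0.61 to -0.34 in control eyes at P20 and -0.48 to 1.01 at P40, and that of Nrf2 eyes -0.63 to -0.14 at P20 and -0.40 to 1.26 at P40. The members' median deviation was -0.48 to -0.04 in control eyes at P20 and -0.29 to 0.49 at P40. The Nrf2 eye of P40 mouse 8 was the highest by both measures, at 1.26 for length and 0.82 for the members. Most members are themselves short, so these measures share genes. Between the ages in control eyes, 4 of 6 fibroblast, 2 of 8 rod, 2 of 7 Müller glia and inner retina and 1 of 5 blood markers were lower (6.42% of all genes) and 1 of 10 RPE markers (*Ttr*) was higher. The summed rod level had a higher median at P40, at 165.5 CPM against 105 CPM. Of 6 cone markers 0 were called, with a median log2FC of 1.71 and a summed level of 30.7 to 814 CPM at P20 (median 278 CPM) and 247 to 1995 CPM at P40 (median 761 CPM). The summed RPE level had a median of 14510 CPM at P20 and 35390 CPM at P40. The summed fibroblast level, *Dcn* the most abundant, was 109 to 658 CPM at P20 (median 402 CPM) and 82.1 to 456 CPM at P40 (median 270 CPM), although the median of *Dcn* itself was higher at P40 (148 CPM against 122 CPM), and the part of these cells was not tested.

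**Figure D5:**
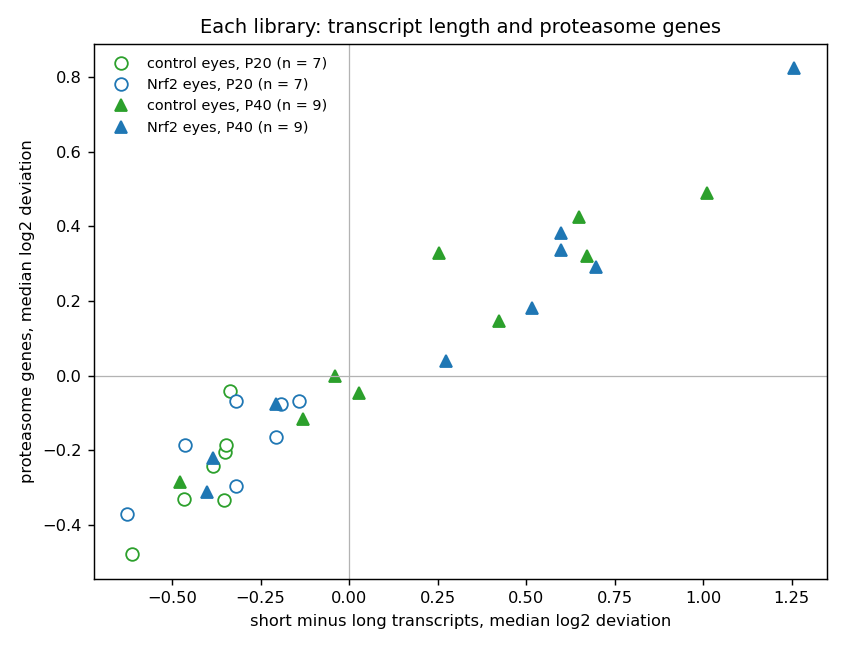
Each of 32 libraries by its median log2 deviation of short minus long transcripts (horizontal axis) and of the proteasome genes (vertical axis), with open circles at P20 and triangles at P40. All P20 libraries lie at or below -0.14 on the horizontal axis, and P40 libraries spread from -0.48 to 1.26.

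In Nrf2 eyes, edgeR called 0 of 39 members between the ages, where 0.167% of the 16745 genes tested were higher. There were 23 members at an unadjusted p under 0.05 (25.8% of genes), DESeq2 called 7 higher (6.87% of genes) and limma voom 4 higher (3.64%). The members' median log2FC was 0.45, beside 0.02 over all genes. It was 0.08, beside -0.03 over all genes, after the correction for length and GC content. Uncorrected and without the Nrf2 eye of P20 mouse 4, it was 0.35, beside -0.02 over all genes. Without that eye, 0 members were called in edgeR, where 0.0531% of genes were higher. *Psmb10* had the smallest adjusted p, with a level of 14.96 to 24.8 CPM at P20 (median 16.6 CPM) and of 20.8 to 109 CPM at P40 (median 31.1 CPM), and a log2FC of 1.25 ± 0.33 (SE, adjusted p 0.0980). The age comparisons and the comparisons between eyes share samples, so their counts are not separate evidence.

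Other genes of the pathway were taken from fixed lists, and their counts stand beside 2.93% of all genes higher at P20 and 3.33% at P40. Of 16 other proteasome genes tested with Nrf2, 1 was higher and 0 lower at each age, and this was *Akirin2*, which carries proteasomes into the nucleus. Its level at P20 was 35.0 to 48.3 CPM in control eyes (median 40.6 CPM) and 46.2 to 116 CPM in Nrf2 eyes (median 83.2 CPM), with a log2FC of 0.94 ± 0.17 (SE, adjusted p 0.0236, higher in 7 of 7 mice). At P40 it was 40.7 to 55.9 CPM in control eyes and 51.9 to 126 CPM in Nrf2 eyes, with a log2FC of 0.96 ± 0.15 (SE, adjusted p 0.00253, higher in 9 of 9 mice). The Nrf2 eyes overlapped the control eyes only at their lower end, through P20 mouse 4 and P40 mouse 3.

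Of 11 genes for p97 and the shuttle factors, 1 was higher at each age, *Sqstm1*, an autophagy receptor for ubiquitin, with log2FC values of 0.92 (adjusted p 0.0304) and 0.89 (adjusted p 0.0116). Of 11 regulators of proteasome genes, 2 were higher at P20, *Keap1* (0.67, adjusted p 0.0349) and *Bach1* (0.78, adjusted p 0.0217), and 1 at P40, *Mafg* (1.18, adjusted p 0.00981). Mouse *Nfe2l1*, which encodes Nrf1, was not called at P20 (-0.10, adjusted p 0.792). Without P20 mice 3 and 4, *Akirin2* (1.07, adjusted p 0.0236), *Sqstm1* (1.07, adjusted p 0.0340), *Keap1* (0.78, adjusted p 0.0405) and *Bach1* (0.83, adjusted p 0.0487) were still called at P20. Of 6 genes for ubiquitin and its activation, 0 were called at either age in edgeR.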

How the data were processed

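The authors deposited estimated counts per gene, rounded and not normalized. The labels name Salmon 0.9.1, and the methods also name featureCounts. That the values are those of Salmon was inferred. In R 4.3.3, genes were kept by filterByExpr, scaled by TMM and tested with edgeR 4.0.16 (quasi-likelihood), with Benjamini-Hochberg adjustment over all genes tested and a threshold of 0.05. The mouse was a block for Nrf2 and for the difference between ages. The pairing is that of the labels. The mean correlation r between the eyes of a mouse, over all genes and in deviations rather than levels, was 0.0142 (P20) and 0.106 (P40). Between eyes of different mice it was 0.0005 and -0.0055. An r over 0.1 was seen in 2 of 7 mice at P20 and in 3 of 9 at P40, so the pairing rests mainly on the labels. Levels are CPM scaled by TMM over the filtered genes of all 32 libraries, and differences within a mouse use log2 CPM (prior count 2). Counting limits cover counting error only, since the RNA was amplified. The members and lists were chosen with earlier results of these data known. Named were 10 of the 12 called members of smallest adjusted p, the first of each subcomplex with Nrf2, and genes of other lists called with Nrf2, and others were named after their values were seen. Alternatives were DESeq2 1.42.0, limma 3.58.1 voom, RLE, other filters, robust dispersion, a length and GC spline, no block, one fit over all eyes, a threshold of 0.1, and leaving out mice or eyes. Tests were run on simulated data first.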

Additional observations from a re-analysis of the deposited data

Results flagged for a closer look

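Among 76 groups of eyes tested for a sample far from the others, 5 had one, where chance gives about 1 in 20 groups. *Psmd11* was 83.21 CPM in the Nrf2 eye of P20 mouse 4, one of the libraries that stood apart from their labels, and the next lowest Nrf2 eye was at 113 CPM. *Psma6* was 65.43 CPM in the Nrf2 eye of P20 mouse 2, and the next lowest was at 84.0 CPM. *Psmc3* was 690.2 CPM in the control eye of P40 mouse 8, and the next highest was at 297 CPM. *Psmc3* was also high, at 505.1 CPM, in the Nrf2 eye of P40 mouse 3, where the next highest was at 279 CPM, and 215 of its exon bases are shared with a gene on the opposite strand. *Psmd1* was 186.1 CPM in the Nrf2 eye of P40 mouse 3, and the next highest was at 153 CPM, with 301 exon bases shared with another gene on the same strand. The Nrf2 eye of P40 mouse 3 also had the highest summed markers of its group for muscle (1770 CPM, next 496.9 CPM) and blood (5835 CPM). It was also the highest for the RPE (70670 CPM) and for Müller glia and inner retina (2579 CPM, next 1786 CPM). The part of these cells was not tested.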

How the results depend on the processing

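With Nrf2 at P20, where 2 members were called, there were 6 with limma voom, 0 without a filter, 1 with at least 10 counts in every library, 1 with the length and GC correction with the replicate block, 1 in one fit over all 32 eyes, 0 without P20 mice 3 and 4, 0 with that correction without those mice, and 0 to 5 when each mouse was left out. Over all genes, 2.93% were higher in the main fit, 9.77% with limma voom (6.21% lower), 1.06% without a filter, 2.81% with at least 10 counts, 2.92% with the correction, 2.83% in one fit, 3.03% without those mice and 3.22% with both. Without the replicate block for the pairing, 3 were called at P20 (5.37% of genes higher), 0 at P40 and 0 for the difference between ages. With Nrf2 at P40 and for the difference between ages, 0 were called under every alternative run, and leaving out P20 mice 3 and 4 does not apply at P40.

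With age in control eyes, where 21 were called, there were 0 without a filter, 0 without the control eye of P20 mouse 3, 1 with the length and GC correction, 0 with both, and 0 to 29 when each eye was left out. Over all genes, 8.34% were higher in the main fit, 1.07% without a filter, 1.37% without that eye, 2.32% with the correction and 0.492% with both. With age in Nrf2 eyes, where 0 were called, DESeq2 called 7 (6.87% of genes higher), limma voom 4 (3.64%), and an adjusted p under 0.1 gave 1. The members' median log2 fold change was 0.12 in control eyes and 0.0753 in Nrf2 eyes with the correction, and 0.12 and 0.026 with the correction and without the library that stood apart. Over all genes these medians were, in the same order, -0.08, -0.03, -0.08 and -0.07. When each mouse or eye was left out, the medians were 0.01 to 0.12 with Nrf2 at P20, -0.09 to 0.08 at P40, 0.43 to 0.59 with age in control eyes, 0.32 to 0.50 in Nrf2 eyes, and -0.18 to 0.02 for the difference between ages.

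With age in control eyes, 5 members called higher were negative after the length and GC correction with all eyes and without the control eye of P20 mouse 3: *Psma1* at -0.20 and -0.22, *Psma4* at -0.0331 and -0.0488, *Psma5* at -0.0428 and -0.0480, *Psma6* at -0.0733 and -0.0734, and *Psmd14* at -0.18 and -0.19. Of the other values of single members, 4004 kept their side of the threshold, values called in neither setting included, 312 were no longer past it, and 42 were newly past it. The cause of these shifts was not tested. The corrections combined with leaving out libraries were chosen after seeing the data. The lowest level of any member, 2.52 CPM for *Psmb9* in 1 eye, lay above the level given by a floor of 3 counts, at most 0.182 CPM.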
